A study of Homo sapiens with 96 samples.

Results

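The effect of the vehicle DMSO was examined in cells that also received EGF. The cells were MDA-MB-231, a breast cancer line of human origin. Arrays of the DMSO-EGF arm were compared with arrays of the EGF arm at all 7 times after 0 h, each paired with the EGF array of its own series and time. This gave 21 pairs, or 42 of the 96 arrays of the study. The study followed transcript levels over 48 h after EGF, with or without the MEK inhibitor U0126, in series 2D03 and 2D04 (2D culture, repeats 1 and 2) and 3D04 (3D culture), with 32 arrays a series. All cells had been grown to 80% confluence and kept in low serum for 24 h. The EGF group received 10 ng/ml EGF at 0 h, and the DMSO-EGF group received DMSO for 30 min before the same dose of EGF. Cells of the U0126 group received 10 uM U0126 for the 30 min before EGF, and control cells received no EGF, DMSO or U0126. The labels give no concentration for DMSO, and 05h was taken to mean 0.5 h. Nor do they state that repeats came from separate cultures, so the p-values reflect the spread between these arrays, which may be technical. After 0 h, every arm and time had a single array in each series. Tests over several times therefore take the times of a series as repeats, which they are not.

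DMSO is a small polar solvent that crosses membranes and is used to carry compounds such as kinase inhibitors into cells. It is a radical scavenger, is reduced and oxidised on its sulfur atom in cells, and at high doses acts on protein folding, osmotic balance and differentiation. A vehicle arm exists so that an inhibitor can be compared with cells given the solvent alone. EGF binds its receptor EGFR and, through RAS, RAF, MEK and ERK, switches on immediate early genes such as EGR1 and FOS and then feedback genes such as DUSP6 and SPRY4.

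The deposited values were presumed to be log2 signals, each probe set centred on a reference that is not stated. They therefore show differences between arrays and no absolute level, and the number of arrays limits the precision. The line's identity could not be checked from levels for the same reason. The 42 arrays had medians between -0.06 and 0.03, and no 2 arrays were identical. All differences below are DMSO-EGF minus EGF on this scale unless another is named, and 11874 genes were tested in each comparison. A gene is said to have risen or fallen only where limma's adjusted p (Benjamini-Hochberg over all genes) was under 0.05.

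No wider spread was found within vehicle pairs than between 2 control arrays of the same series at 0 h. The SD of the differences over genes was 0.170 on average for the 21 vehicle pairs (SD 0.0269, n = 21) and 0.182 for the 3 control pairs (SD 0.0358, n = 3; two-sided exact permutation test, p = 0.454). It ran from 0.139 to 0.232 in the vehicle pairs and from 0.141 to 0.208 in the control pairs. This test did not take series into account, and each series had a single control pair. The control pair stood at 0.208 in 2D03 (vehicle pairs 0.175 to 0.232), at 0.197 in 2D04, above all 7 vehicle pairs (0.142 to 0.175), and at 0.141 in 3D04 (0.139 to 0.163). Over single pairs the median absolute difference lay between 0.08 and 0.15, and 14 to 275 genes (median 49) differed by more than 1.5-fold. Between 0 and 12 genes a pair differed by more than 2-fold. Series 2D03 had the widest pairs, with 67 to 275 genes over 1.5-fold, against 14 to 89 in 2D04 and 15 to 50 in 3D04. For scale, pairs of U0126 and DMSO-EGF arrays had SDs of 0.148 to 0.661 and 32 to 2359 genes over 1.5-fold.

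**Figure D1:**
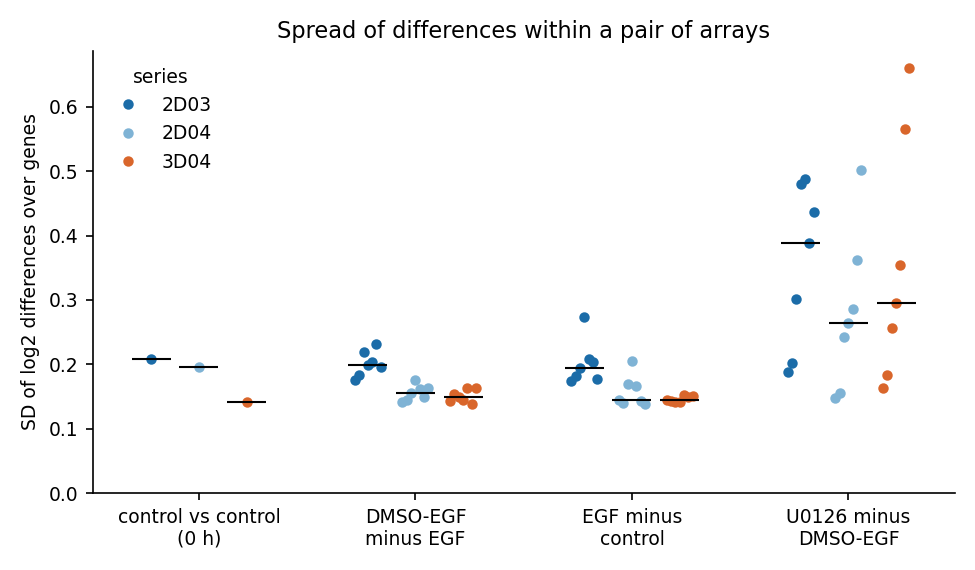
SD over 11874 genes of the log2 differences within each pair of arrays (y axis), by kind of pair (x axis) and series (colour), 1 point per pair, with a line at the median of each series. The vehicle pairs (0.139 to 0.232) lie over about the same range as the control pairs at 0 h (0.141 to 0.208), while the pairs with U0126 reach 0.661.

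Over all 7 times no gene passed the test. In limma, 0 of 11874 genes (0%) were called and 868 had an unadjusted p under 0.05 (7.31%), 353 of them higher and 515 lower with DMSO. The smallest adjusted p was 0.0897, for EGR1, an immediate early transcription factor that acts downstream of ERK (0.19, SE 0.034). An exact sign test of the 21 differences also called 0 genes, with 575 at an unadjusted p under 0.05 and a smallest adjusted p of 0.525. The 95% interval of the difference lay within 1.5-fold either way for all 11874 genes (100%). The largest estimate was 0.27 and the lowest -0.20.

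Among the genes with the smallest p on the higher side, EGR1 was higher in 18 of 21 pairs, lower in 2 and equal in 1, with a lowest difference of -0.15, a median of 0.23 and a highest of 0.44. SCNN1G, a subunit of the epithelial sodium channel, was higher in 19 of 21 pairs (0.12, SE 0.029, adjusted p = 0.465). KLF2, a zinc finger transcription factor, stood at 0.17 (SE 0.042, adjusted p = 0.465), higher in 15 pairs, and IRS2, an insulin receptor adaptor, at 0.11 (SE 0.029), higher in 17. HOXD1, NPTXR, NALF1, GPR137B, PPDPF, CIC, PIR and JUND stood between 0.10 and 0.13, each higher in 15 to 17 of 21 pairs. In every one of these genes the pairs reached both sides of 0.

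On the lower side, PKP2, a plakophilin of desmosomes, was lower in 19 of 21 pairs (-0.13, SE 0.035, adjusted p = 0.465). SUGCT, a mitochondrial CoA transferase, was lower in 18 (-0.10, SE 0.026). KISS1, which encodes the kisspeptin precursor and is known as a metastasis suppressor, stood at -0.15 (SE 0.034, adjusted p = 0.465) with 17 pairs lower. ARSJ, a sulfatase, had the lowest mean of these, at -0.17 (SE 0.044), with pairs from -0.64 to 0.16. BCLAF1, RAB38, LDAH, CALHM2, the adhesion gene NECTIN3, the cholesterol esterifying enzyme SOAT1, MBIP and LZTS1 stood between -0.14 and -0.09, lower in 15 to 17 pairs. Over all genes, 10 were higher in at least 18 of 21 pairs (0.0842%) and 16 were lower (0.135%).

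**Figure D2:**
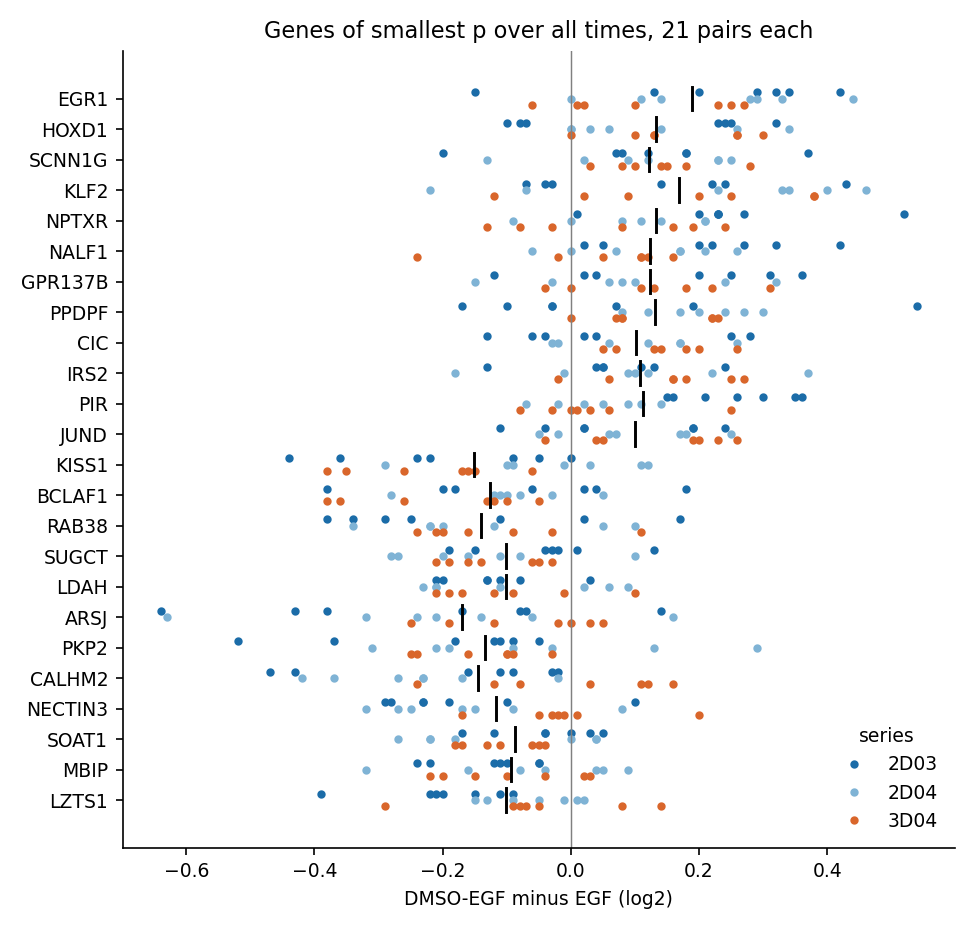
DMSO-EGF minus EGF (x axis, log2) in each of 21 pairs for the 12 genes of smallest p on each side (y axis), coloured by series, with a black line at the mean. None of these genes passed the test over all times, and for each of them some pairs lie on the other side of 0.

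The vehicle difference was then taken by window of time. In the middle window (4, 8 and 12 h, 9 pairs) 2 genes rose with DMSO, EGR1 and GPR137B (0.0168% of 11874 genes called, with 863, or 7.27%, at an unadjusted p under 0.05). In series 2D03 EGR1 stood at 3.13, 2.77 and 2.71 with EGF and at 3.42, 3.19 and 3.03 with DMSO-EGF at 4, 8 and 12 h. In 2D04 it stood at 2.57, 2.10 and 1.59 with EGF and at 2.86, 2.38 and 2.03 with DMSO-EGF. In 3D04 the values were 0.97, 1.11 and 0.94 with EGF and 1.22, 1.21 and 1.21 with DMSO-EGF. All 9 pairs were higher with DMSO, by 0.10 to 0.44, while the arms overlapped across series and times because EGR1 differed far more between those. The mean was 0.30 (SE 0.042, adjusted p = 0.00421). These values come from 1 of the 2 probe sets of EGR1. In 3D04 from 1 to 24 h this probe set had a mean of 0.11 and the other -0.13. Over all 21 pairs the means were 0.19 and 0.13. EGR1 stood at 0.04 (SE 0.052, adjusted p = 0.998) in the early window (0.5 and 1 h) and 0.17 (SE 0.052, adjusted p = 0.648) in the late window (24 and 48 h).

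GPR137B encodes a membrane protein of lysosomes. Its 9 differences in the middle window were 0.31, 0.36 and 0.20 in 2D03, 0.10, 0.32 and 0.24 in 2D04, and 0.18, 0.13 and 0.31 in 3D04. All were above 0 (mean 0.24, SE 0.040, adjusted p = 0.0220), and outside this window its pairs lay between -0.15 and 0.25. Leaving out any single pair of the 21 kept EGR1 past the threshold, with adjusted p between 0.00222 and 0.0289. GPR137B no longer passed when the 4, 8 or 12 h pair of 2D03, the 8 or 12 h pair of 2D04 or the 4 or 12 h pair of 3D04 was left out. Neither gene passed without series 2D03, without series 2D04 or without series 3D04, or in a fit with no pairing. EGR1 also missed the threshold in this window with the mean of its probe sets or with pairs as a random block. With the variance trend taken over the mean difference, as first run, 0 genes were called, so both calls rest on a correction made after results were seen.

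The early window had 0 called genes in limma (385 at an unadjusted p under 0.05, 3.24%) and the late window 0 (722, 6.08%). The difference between the late and the early window also had 0 (515, 4.34%, smallest adjusted p 0.997). At single times, with 3 pairs each, limma called 0 genes at every time. An unadjusted p under 0.05 was found for 385 genes at 0.5 h (3.24%) and 468 at 1 h (3.94%). The number was 814 at 4 h (6.86%), 662 at 8 h (5.58%), 742 at 12 h (6.25%), 793 at 24 h (6.68%) and 742 at 48 h (6.25%). Single times were less precise, with a 95% interval within 1.5-fold for 98.6% to 99.3% of genes.

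Genes of the EGF pathway came next, since the vehicle arm serves as the reference for ERK inhibition. Over all genes, 2.97% had an unadjusted p under 0.05 on the higher side and 4.34% on the lower side. Of 21 immediate early genes 0 were called over all times, with a list median of 0.02 beside -0.0043 for all genes. In this list 7 genes had an unadjusted p under 0.05, all higher with DMSO. Besides EGR1 these included FOS, the AP-1 subunit (0.24, SE 0.082, adjusted p = 0.540), and the stress-responsive factor ATF3 (0.12, SE 0.046, adjusted p = 0.586). FOS was above 0 in 16 of 21 pairs with a median of 0.14. Its highest pair, 12 h in 2D03, stood at 0.05 with EGF and 1.89 with DMSO-EGF, a difference of 1.84. In the middle window 1 of the 21 genes rose, EGR1. Of 12 ERK output and feedback genes 0 were called and 1 had an unadjusted p under 0.05, higher, with a median of 0. The ERK phosphatase DUSP6 stood at -0.01 (SE 0.044, 95% interval -0.10 to 0.09), and its sign changed with the pairs left out. The feedback inhibitor SPRY4 stood at 0.02 (SE 0.025), the AP-1 subunit FOSL1 at 0.05 (SE 0.023, adjusted p = 0.645), cyclin D1 (CCND1) at 0.01 (SE 0.025) and MYC at -0.01 (SE 0.027). Of 14 genes of the EGF receptor family, its ligands and feedback 0 were called and 0 had an unadjusted p under 0.05 (median -0.0002), with LRIG1, which promotes receptor degradation, highest at 0.08 (SE 0.046).

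The same genes moved far more with U0126 itself, which is given for scale because that comparison shares the DMSO-EGF arrays. In U0126 minus DMSO-EGF, 3529 of 11874 genes were called (29.7%), and EGR1 fell by 2.93 (SE 0.19), DUSP6 fell by 2.31 (SE 0.19) and SPRY4 fell by 2.24 (SE 0.20). Against untreated control, which shares no array with the vehicle comparison, 3350 genes were called (28.2%), and EGR1 stood at -2.56 (SE 0.18), DUSP6 at -2.23 (SE 0.18) and SPRY4 at -2.13 (SE 0.19). EGF minus control, which shares the EGF arrays, had 0 called genes in limma with 1091 at an unadjusted p under 0.05 (9.19%), and EGR1 stood at 0.18 (SE 0.046, adjusted p = 0.290). Beside this, the vehicle difference of EGR1 over all times was 0.19.

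The AHR pathway was listed because its CYP1 enzymes respond to many added chemicals. Of 8 genes 0 were called and 1, CYP1A1, had an unadjusted p under 0.05, lower, as did 4.34% of all genes (median of the list -0.01). CYP1A1 stood at -0.11 (SE 0.050, adjusted p = 0.665) with pairs from -0.64 to 0.36, and CYP1B1 at 0.09 (SE 0.056, adjusted p = 0.743) with pairs from -0.36 to 0.70. In U0126 minus DMSO-EGF both rose, CYP1A1 by 2.94 (SE 0.37) and CYP1B1 by 3.48 (SE 0.39), so the vehicle pairs stayed well short of the difference seen with the inhibitor.

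Stress lists that fit a solvent also had 0 called genes over all times. Their counts stand beside shares over all genes of 2.97% higher and 4.34% lower at an unadjusted p under 0.05. Of 12 NRF2 oxidative stress genes 1 had an unadjusted p under 0.05, higher (GCLM, 0.04, SE 0.020), and the list median was 0.01. HMOX1, the heme oxygenase, stood at 0.06 (SE 0.053). Of 13 genes of methionine sulfoxide reduction and sulfur amino acid metabolism 2 had an unadjusted p under 0.05, higher, SUOX (0.08, SE 0.032) and CBS (0.10, SE 0.041), with a median of 0.01. MSRA, a methionine sulfoxide reductase, stood at -0.01 (SE 0.022). Of 9 metallothioneins and zinc response genes 0 did (median 0.02, MT2A 0.01, SE 0.019). Of 15 heat shock genes 1 did, lower, the chaperonin cofactor HSPE1 (-0.05, SE 0.020, median of the list 0.01). HSPA1A, an inducible HSP70 gene, stood at 0.10 (SE 0.051, adjusted p = 0.689), and its difference was 1.13 in the 12 h pair of 2D03 against a median of 0.06. Of 11 osmotic stress genes and water channels 2 did, both lower, the osmotic transcription factor NFAT5 (-0.13, SE 0.050, adjusted p = 0.586) and the inositol carrier SLC5A3 (-0.12, SE 0.057), with a median of -0.01.

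Other lists were described in the same way, and each had 0 called genes over all times. Beside their counts, the shares over all genes were again 2.97% higher and 4.34% lower. In the ATF4 and unfolded protein response list (15 genes, median 0.03) 2 genes had an unadjusted p under 0.05, higher, DDIT4 (0.26, SE 0.073, adjusted p = 0.471) and DNAJB9 (0.07, SE 0.029). Of 16 cholesterol and fatty acid synthesis genes 2 did, higher, fatty acid synthase FASN (0.10, SE 0.030) and IDI1 (0.07, SE 0.023), with a median of 0.03 and HMGCS1 at 0.05 (SE 0.032). In the list of 14 cytokine, chemokine and NF-kB target genes 3 did, higher, the prostaglandin synthase PTGS2 (0.19, SE 0.061, adjusted p = 0.540), the adhesion gene ICAM1 (0.08, SE 0.032) and the cytokine LIF (0.08, SE 0.037), with a median of 0.03. Of 14 interferon-stimulated genes 1 did, lower, ISG15 (-0.06, SE 0.022, median -0.03). Of 18 G1/S and DNA replication genes 1 did, lower, the replicative helicase subunit MCM4 (-0.05, SE 0.021, median -0.02). Of 20 G2/M and mitosis genes 3 did, lower, the kinetochore gene CENPF (-0.13, SE 0.042, adjusted p = 0.540), the kinase CDK1 (-0.06, SE 0.026) and BUB1 (-0.06, SE 0.027), with a median of -0.04.

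Of 13 CDK inhibitors, p53 targets and quiescence genes 2 had an unadjusted p under 0.05, higher, CDKN1A (0.12, SE 0.056) and GADD45B (0.07, SE 0.028), with a median of 0.02. Of 14 enzymes of DNA methylation and histone acetylation 0 did (median -0.01). Of 14 SRF and YAP cytoskeletal targets 1 did, higher, CCN2 (0.07, SE 0.027, median 0.0017). Of 7 genes known to be high in MDA-MB-231 cells 1 did, higher, FOSL1 (median -0.01). Among markers of other cells, 2 of 12 luminal epithelial markers did, both lower, EPCAM (-0.12, SE 0.041) and KRT8 (-0.09, SE 0.030), with a median of -0.02. The same count was 1 of 8 leukocyte markers, CD14, higher (0.07, SE 0.031, median 0.0069), and 0 of 11 fibroblast and endothelial markers (median 0.0005). The shares over all genes were 2.97% higher and 4.34% lower.

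**Figure D3:**
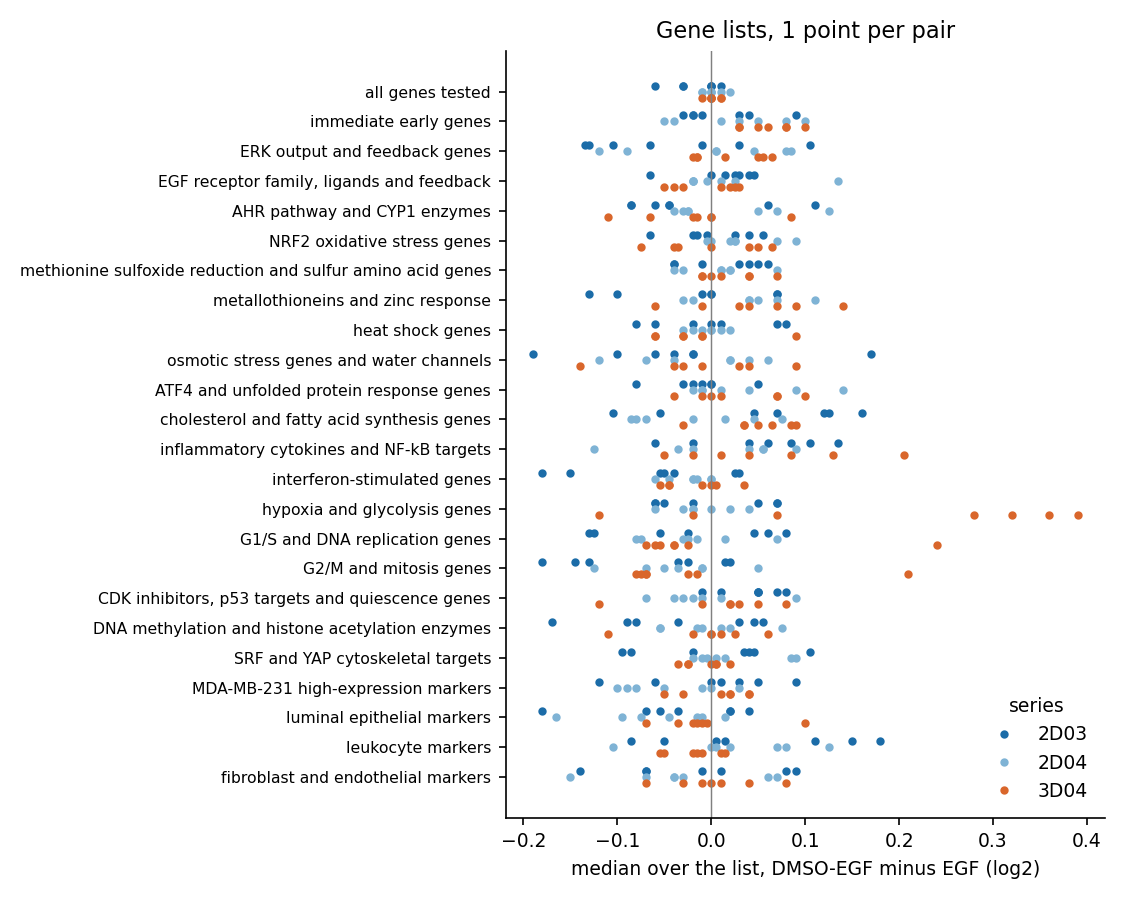
Median of DMSO-EGF minus EGF (x axis, log2) over the measured members of each gene list (y axis), 1 point per pair, coloured by series. Most medians lie between -0.2 and 0.2. The hypoxia and glycolysis list stands at 0.28 to 0.39 in the 3D04 pairs of 1, 4, 8 and 12 h.

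The vehicle difference was next taken by culture, and here named genes rose in 3D. In the 7 pairs of series 3D04, 3 genes rose with DMSO (0.0253% of 11874, with 513 at an unadjusted p under 0.05, 4.32%, of which 321, or 2.70%, were higher and 192, or 1.62%, lower), and 0 fell. The 95% interval lay within 1.5-fold for 11864 genes (99.9%). They were DDIT4, which encodes an inhibitor of the growth kinase mTORC1 and is induced by low oxygen and other stress, NDRG1, a gene known to be induced by low oxygen, and the transmembrane protein gene TMEM45A. In the 14 pairs of 2D culture limma called 0 genes (1044 at an unadjusted p under 0.05, 8.79%, smallest adjusted p 0.0931). The 7 pairs in 3D are successive times of a single series, so their p-values do not measure the spread between separate 3D cultures. Over genes, the differences of the 3D04 pairs from 1 to 24 h correlated at 0.07 to 0.18 (median 0.13). Between pairs of different series the median was 0.01 (-0.08 to 0.11).

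TMEM45A stood at -0.04, 0.29, 0.32, 0.10, 0.15, 2.12 and 4.26 with EGF at 0.5, 1, 4, 8, 12, 24 and 48 h in 3D04. With DMSO-EGF it stood at 0.05, 1.49, 1.59, 1.26, 1.89, 3.18 and 3.88. The DMSO-EGF array was higher by 1.06 to 1.74 from 1 to 24 h, about level at 0.5 h (0.09) and lower at 48 h (-0.38), so the arms separated and met again as the gene climbed in both. The mean over 7 times was 0.88 (SE 0.16, adjusted p = 0.0332), against -0.03 over the 14 pairs in 2D, where pairs ran from -0.55 to 0.33.

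NDRG1 stood at -0.03, 0.16, 0.08, -0.01, 0.48, 1.88 and 3.16 with EGF and at -0.06, 0.83, 0.95, 1.17, 1.59, 2.38 and 3.18 with DMSO-EGF in 3D04. Its differences were 0.50 to 1.18 from 1 to 24 h, -0.03 at 0.5 h and 0.02 at 48 h. The mean was 0.62 (SE 0.10, adjusted p = 0.0176), against 0.02 in 2D. DDIT4 stood at -2.89, -2.75, -1.45, -1.45, -1.39, -1.18 and 1.59 with EGF and at -2.81, -2.24, -0.31, -0.49, -0.37, -0.75 and 1.64 with DMSO-EGF. All 7 pairs were higher, by 0.43 to 1.14 from 1 to 24 h and by 0.08 and 0.05 at the ends (mean 0.60, SE 0.099, adjusted p = 0.0176), against 0.09 in 2D.

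The 3D minus 2D difference itself was tested and had 0 called genes in limma, with 593 at an unadjusted p under 0.05 (4.99%, with 376, or 3.17%, higher and 217, or 1.83%, lower). It was 0.60 for NDRG1 (SE 0.13, adjusted p = 0.181), 0.91 for TMEM45A (SE 0.19, adjusted p = 0.181) and 0.51 for DDIT4 (SE 0.12, adjusted p = 0.282). All 3D pairs came from series 3D04, so culture and series cannot be told apart in this difference. The calls in 3D were lost when the 1, 4, 8, 12 or 24 h pair of 3D04 was left out, or either 2D series, whose arrays share in the estimate of spread, and also in a fit with no pairing or with pairs as a random block. With the variance trend taken over the mean difference, as first run, 0 genes were called in 3D (adjusted p = 0.370 for each of the 3 in limma), so these calls too rest on the later correction. With series 3D04 given its own spread over its 7 times, 0 genes were called (834 at an unadjusted p under 0.05, smallest adjusted p 0.473). TMEM45A also missed the threshold without the 1, 8, 24 or 48 h pair of 2D04. Without the 0.5 h pair of 3D04 9 genes rose, and without its 48 h pair 17 were called, 16 of them higher.

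That the difference lay between 1 and 24 h was seen in the values, and the 5 pairs of these times were then described on their own. In all 5 pairs, 676 genes were above 0 (5.69%) and 566 below 0 (4.77%), 24 were above 0.2 (0.202%) and 0 were below -0.2. The 24 genes were chosen by these values and are given as a description. By mean they were led by TMEM45A (mean 1.29, 2.44-fold), SPAG4 (1.04, 2.06-fold), the secreted hormone gene STC1 (0.94, 1.92-fold), NDRG1 (0.87, 1.82-fold), lysyl oxidase LOX, which cross-links collagen (0.84, 1.79-fold), DDIT4 (0.81, 1.76-fold), the cystatin CST1 (0.73, 1.66-fold) and the neuronal enolase ENO2 (0.58). Others were the MYC antagonist MXI1 (0.45), the mitophagy receptor BNIP3L (0.45), the thioredoxin-binding protein TXNIP (0.38) and the water channel AQP1 (0.37). In the same times of 2D, all 10 pairs were above 0 for 10 genes (0.0842%). Fitted without 0.5 and 48 h, a choice made after these values were seen, 26 genes rose in 3D and 19 were called for 3D minus 2D. With 3D04 given its own spread over these 5 times, 20 genes rose (1313 at an unadjusted p under 0.05), 14 of them among the 26.

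**Figure D4:**
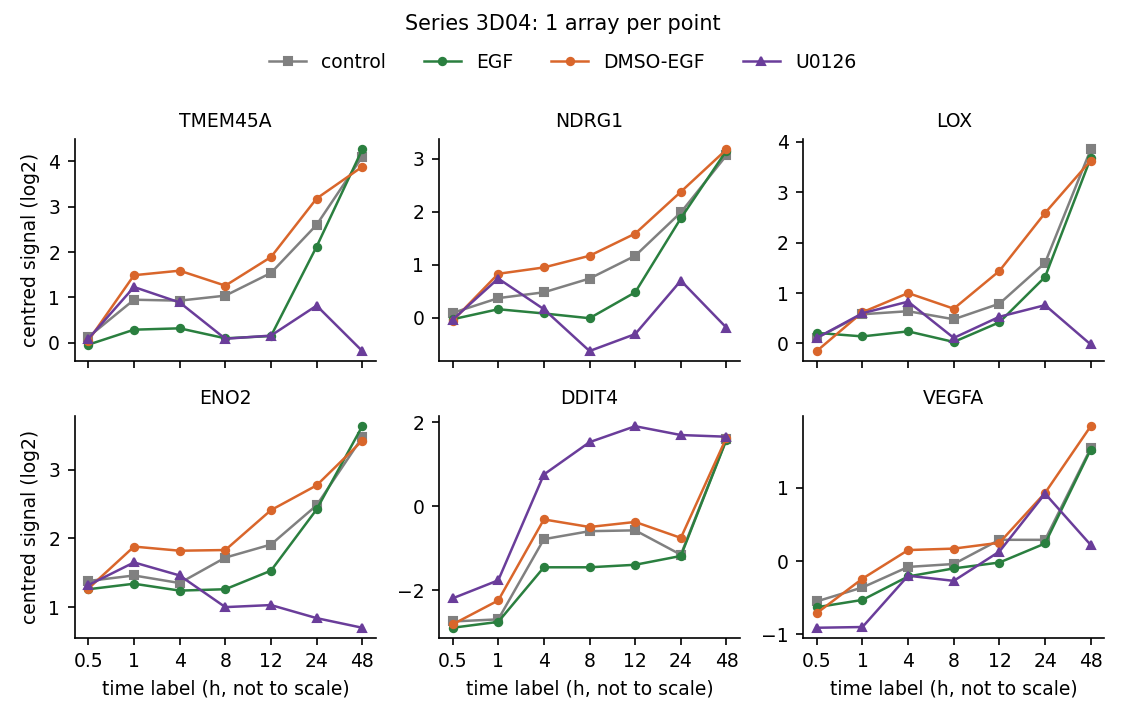
Centred signal (y axis, log2) by time label (x axis, not to scale) in series 3D04 for TMEM45A, NDRG1, LOX, ENO2, DDIT4 and VEGFA, 1 array per point, coloured by arm. DMSO-EGF lies above EGF from 1 to 24 h, and for TMEM45A, NDRG1 and ENO2 control lies between these arms at those times.

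Of the 24 genes, 4 were in the list of hypoxia and glycolysis genes, which held 15 of the 11874 genes tested. Of the 26 that rose without 0.5 and 48 h, times left out after the values were seen, 6 were in it. The list holds targets of the hypoxia-inducible factor HIF1, which switches on glycolysis, VEGFA and matrix enzymes when oxygen is low and binds sites with the core ACGTG. The hypoxia and glycolysis list held 15 measured genes. In 3D 1 of them was called, NDRG1, and 11 had an unadjusted p under 0.05, all higher, where 2.70% of all genes were on that side. The list median was 0.17 in 3D, beside 0.0014 for all genes, and 0.0029 in 2D, beside -0.0079. By pair in 3D04 the list median was -0.02 at 0.5 h, 0.28 at 1 h, 0.36 at 4 h, 0.32 at 8 h, 0.39 at 12 h, 0.07 at 24 h and -0.12 at 48 h. In series 2D03 and 2D04 it stayed between -0.06 and 0.07.

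From 1 to 24 h in 3D04, 11 of the 15 list genes were above 0 in all 5 pairs, beside 5.69% of all genes, and 4 were above 0.2 in all 5, NDRG1, ENO2, ALDOC and VEGFA, beside 0.202%. The count above 0 in all 10 pairs of 2D was 0 of 15, beside 0.0842% of all genes. A count over 10 pairs is stricter than one over 5, so these 2 counts cannot be compared directly. ENO2 stood at 1.26, 1.34, 1.24, 1.26, 1.53, 2.42 and 3.63 with EGF and at 1.27, 1.88, 1.82, 1.83, 2.41, 2.77 and 3.42 with DMSO-EGF. Its mean over 7 times was 0.39 (SE 0.079, adjusted p = 0.116), and the glycolytic aldolase ALDOC stood at 0.37 (SE 0.078, adjusted p = 0.131), so neither passed over 7 times. The angiogenic factor VEGFA stood at 0.30 (SE 0.061, adjusted p = 0.116), the mitophagy receptor BNIP3 at 0.29 (SE 0.067, adjusted p = 0.181), hexokinase HK2 at 0.17 (SE 0.064) and the glucose carrier SLC2A1 at 0.13 (SE 0.050). The transcript of HIF1A, the oxygen-regulated subunit, ran from -0.12 to -0.02 in the 5 pairs, below 0 in each. Oxygen regulates this subunit mainly through its protein, which arrays do not measure.

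**Figure D5:**
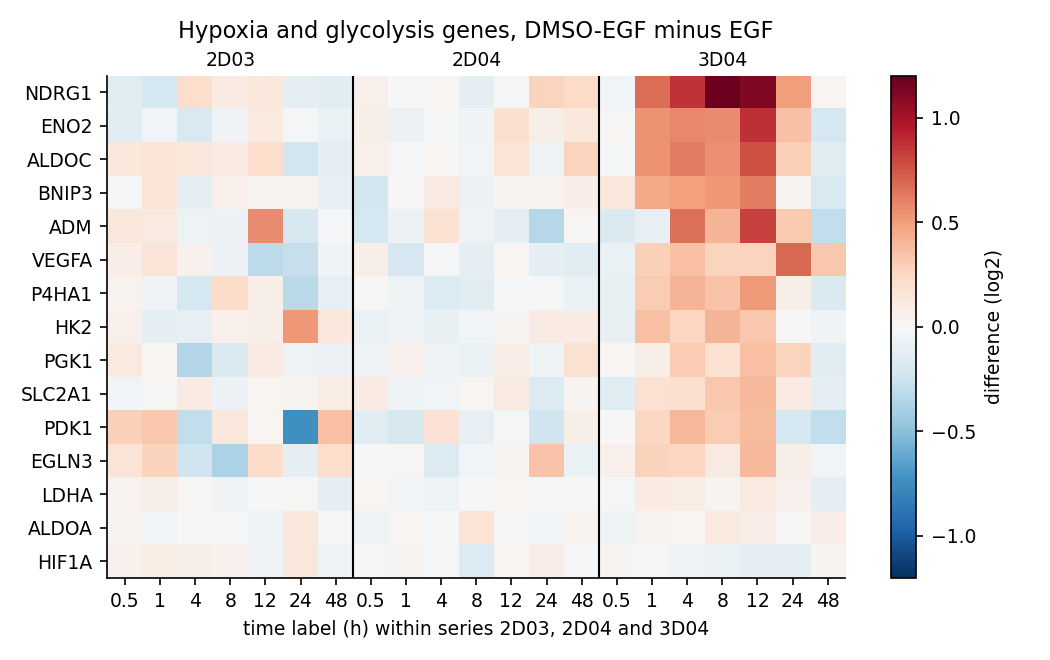
DMSO-EGF minus EGF (colour, log2) for the 15 measured genes of the hypoxia and glycolysis list (rows) in each pair, ordered by time label within series (columns). The block of higher values is in 3D04 from 1 to 12 h, where NDRG1 reaches 1.18 and the list median is 0.28 to 0.39. At 24 h in 3D04 the list median is 0.07, and in 2D pairs it lies between -0.06 and 0.07.

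Since these genes moved together in 3D04, promoters were read from RefSeq (GRCh38.p14) as the 250 bases before the start of each gene, and searched on both strands for ACGTG, the core of the HIF1 site, which reads CACGT on the other strand. Those of TMEM45A (chr3:100492369-100492618, plus strand), LOX (chr5:122078260-122078509, minus strand), DDIT4 (chr10:72273674-72273923, plus strand) and ENO2 (chr12:6914330-6914579, plus strand) are shown 5′ to 3′ as those of 4 genes described above that were matched in the table, with the motif in capitals.
TMEM45A: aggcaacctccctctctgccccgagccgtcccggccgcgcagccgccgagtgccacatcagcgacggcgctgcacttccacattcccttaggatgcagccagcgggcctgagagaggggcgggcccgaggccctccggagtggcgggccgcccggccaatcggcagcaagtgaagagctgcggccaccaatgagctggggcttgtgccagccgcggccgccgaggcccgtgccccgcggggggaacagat
LOX: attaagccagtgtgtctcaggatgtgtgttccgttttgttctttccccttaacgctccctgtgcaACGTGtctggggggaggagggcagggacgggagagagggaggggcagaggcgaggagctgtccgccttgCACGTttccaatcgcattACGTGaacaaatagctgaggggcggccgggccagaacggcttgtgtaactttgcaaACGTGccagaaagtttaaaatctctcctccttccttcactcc
DDIT4: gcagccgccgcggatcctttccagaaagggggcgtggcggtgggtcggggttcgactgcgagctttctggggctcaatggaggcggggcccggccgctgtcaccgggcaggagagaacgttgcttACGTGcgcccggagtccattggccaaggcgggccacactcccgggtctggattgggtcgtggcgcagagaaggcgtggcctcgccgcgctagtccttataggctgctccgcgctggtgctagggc
ENO2: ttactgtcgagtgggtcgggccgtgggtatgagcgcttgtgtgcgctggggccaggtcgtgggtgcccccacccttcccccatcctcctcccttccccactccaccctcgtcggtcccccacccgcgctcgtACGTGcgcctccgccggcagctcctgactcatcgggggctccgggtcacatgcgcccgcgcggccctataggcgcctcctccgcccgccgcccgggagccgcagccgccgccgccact
The LOX promoter held the motif 4 times, those of DDIT4 and ENO2 held it 1 time each, and that of TMEM45A 0 times in this window. The motif was in 8 of 13 promoters of the hypoxia list (61.5%) and 6 of 16 of the 24 genes above 0.2 (37.5%), against 2069 of 9592 measured genes (21.6%) and 5101 of all 27305 promoters (18.7%). The hypoxia list holds known HIF1 targets and the 24 genes were chosen by these values, so neither share is a test. ENO2 and ALDOC count in both. A match of 5 letters is a description and no evidence of binding.

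Control arrays of series 3D04 lay between the EGF and DMSO-EGF arms at all times from 1 to 24 h for TMEM45A, NDRG1, DDIT4, LOX and ENO2. From 1 to 24 h, TMEM45A in control stood at 0.95, 0.93, 1.04, 1.54 and 2.60, in each case above EGF and below DMSO-EGF. The mean difference from control was -0.82 for EGF and 0.47 for DMSO-EGF. For NDRG1 it was -0.43 and 0.43, and for DDIT4 -0.49 and 0.32. Over the 15 hypoxia genes, the median of these means was -0.12 for EGF minus control and 0.15 for DMSO-EGF minus control. These differences share arrays with the vehicle difference and with each other and are given side by side only. With 1 array per arm and time in a single 3D series, the vehicle and any other difference between the cultures of these arms cannot be told apart.

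Values that could move with such a pattern were read in the same 5 pairs. For the control transcripts GAPDH and ACTB, the 5′ minus 3′ probe set signal was taken as a measure of RNA integrity. Its differences between the arms ran from -0.08 to 0.09. This measure does not give the level of these transcripts. By pair, the list median of luminal epithelial markers ran from -0.02 to 0.10, that of leukocyte markers from -0.055 to 0.015 and that of fibroblast and endothelial markers from -0.07 to 0.08. Over all 7 pairs of 3D04, 0 members of each of these lists had an unadjusted p under 0.05. The part of other cells in the result was not tested. Some genes were measured by several probe sets that did not move alike. From 1 to 24 h the mean was 0.84, 0.52 and 0.90 for the 3 of LOX, 0.94, 0.56 and 0.93 for the 3 of STC1, and 0.34 to 0.49 for the 4 of VEGFA. Others ranged more widely, NEBL from 0.05 to 0.62 and ITGB5 from 0.07 to 0.38. ATP8A1 ranged from -0.04 to 0.39, OBSL1 from -0.02 to 0.32 and PGK1 from -0.03 to 0.24. For HK2 the probe set read had 0.27 and the other -0.06, and for SLC2A1 these were 0.24 and 0.08. TMEM45A, NDRG1, DDIT4 and ENO2 had 1 probe set each.

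The vehicle was also given without EGF for 30 min, on arrays that share nothing with the 42 above. In DMSO minus control at 0 h (3 against 6 arrays, with a term for each series) limma called 0 genes, with 600 at an unadjusted p under 0.05 (5.05%) and a smallest adjusted p of 0.290. EGR1 stood at -0.10 (SE 0.13), TMEM45A at -0.01 (SE 0.080), NDRG1 at -0.09 (SE 0.067) and DDIT4 at -0.13 (SE 0.088), none past the threshold. The largest difference, singled out after its value was seen, was 1.13 for the heat shock gene HSPA6 (SE 0.49, adjusted p = 0.897).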

How the data were processed

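RNA of MDA-MB-231 cells was measured on 96 arrays. The deposited values were read as log2 signals, since RMA is the method in the submitters' processing notes. Log base, centring and reference are not given in the sources used here. Of 22930 probe sets, 524 were array controls, 2866 were not listed in the annotation, 125 had several symbols and 125 a symbol absent from RefSeq. The other 19290 with 1 symbol covered 11874 genes, 4449 with several probe sets. Each gene was read from the probe set with the largest SD over all 96 arrays, with no filter on low values. The test on differences within pairs came from the limma package (version 3.58.1, run in R 4.3.3, eBayes with a variance trend), which equals a fit with a block for each pair, two-sided, with Benjamini-Hochberg adjustment over all genes. Windows shared 1 estimate of spread, as did the cultures (19 residual degrees of freedom). The exact permutation test used scipy 1.17.1. The trend was first run over the mean difference and corrected to the mean value after results were seen, and the first version is kept as an alternative.

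Series and time pair the arrays: the correlation of same-series deviations between the 2 arms was 0.729 to 0.809 over 7 times. Named genes were the 12 of smallest p a side over all times, up to 4 called genes a direction in other comparisons, up to 4 members of smallest p over all times of each of the 23 lists (303 of 341 genes measured), and 14 genes always named. Others named were chosen after their values were seen. The members and lists were chosen with earlier results of these data known. The procedure was tested on simulated data. Alternatives were other pairings, variance models, probe set rules, filters, scalings and pairs or series left out. Array values of the other arms are given for scale only.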

Additional observations from a re-analysis of the deposited data

Results flagged for a closer look

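Within each series the 7 differences of a gene or the 7 medians of a gene list were checked for a single time far from the other 6, in 183 groups, of which chance alone sets about 1 in 20 apart. The 9 groups set apart are about that share, so none of them stands out from chance by number. The times of a series are not repeats of 1 condition. In 2D03 the 12 h pair stood apart for FOS (1.84) and HSPA1A (1.13). The closely related HSPA1B was at 1.07 and ATF3 at 0.73 in that pair, and in the 12 h pairs of 2D04 and 3D04 FOS stood at 0.46 and 0.06 and HSPA1A at 0.04 and -0.08.

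In 3D04 the 48 h pair stood apart for several lists. The median of the G1/S and DNA replication genes was 0.24, with 18 of 18 above 0. That of the G2/M and mitosis genes was 0.21, with 20 of 20 above 0. Over all genes, 6188 of 11874 were above 0 in that pair. Members of a list are not separate observations. At the other 6 times these medians lay between -0.08 and -0.015. The heat shock genes had a median of 0.09 in that pair and PIR, an iron-binding nuclear protein, a difference of 0.25. It is 1 pair of arrays, so the difference has no repeat.

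Small list medians also stood apart, for the EGF receptor family, its ligands and feedback at 1 h in 2D03 (-0.065, lowest) and at 12 h in 2D04 (0.135, highest), and for luminal epithelial markers at 1 h in 3D04 (0.1, highest).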

How the results depend on the processing

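With no replicate block, the middle window and the 3D comparison had 0 called genes, U0126 minus DMSO-EGF had 2204 and U0126 minus control 2203. With the replicate block as a random effect, the middle window had 1 and 3D 0. Array weights gave 29 in 3D (26 higher), the mean of probe sets 1 in the middle window (GPR137B) and 1 in 2D (EGR1), and quantile normalization 6 in 3D. Without series 3D04 there were 0 in the middle window, 1 for late minus early, 2 at 12 h, 1 at 24 h, 1916 for U0126 minus DMSO-EGF and 1682 for U0126 minus control. Of the settings chosen after seeing the data, leaving out 0.5 and 48 h gave 1 over all times (EGR1), 1 in 2D (EGR1), 26 in 3D and 19 for 3D minus 2D. The trend over the mean difference gave 0 in the middle window and 0 in 3D, and 3D04 with its own spread gave 0 over 7 times and 20 over 1 to 24 h. The cause was not tested in any of these.

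Leaving out a pair or a 2D series gave 0 to 1 called genes over all times, 0 to 2 in the middle and in the late window, 0 to 5 in 2D, 0 to 17 in 3D and 0 to 11 for 3D minus 2D. It was 0 to 1 at 4 and 48 h, 0 to 2 at 8, 12 and 24 h, 1999 to 3607 for U0126 minus DMSO-EGF and 1872 to 3472 for U0126 minus control. The other comparisons kept 0 called genes there.

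Of the values of single named genes over all times and in 3D, 5694 kept their direction and side of the threshold, 65 passed it newly, 37 no longer passed it (all for NDRG1, DDIT4 and TMEM45A in 3D) and 30 changed sign, all over all times. DUSP6 stood at 0.0139 with array weights, 0.0267 with the mean of probe sets, 0.0200 with quantile normalization and 0.0467 without 0.5 and 48 h. With the mean of probe sets, MT1M stood at -0.00262, PECAM1 at 0.00159 and CCND1 at -0.00595. VIM stood at 0.0163 with quantile normalization. Without series 3D04, TMEM45A stood at -0.0286, ENO2 at -0.00214, TET1 at -0.00929, TEAD1 at 0.0114, LUM at -0.00643 and SPRY4 at -0.00643, and without 0.5 and 48 h AQP9 stood at 0.0040. With a pair or 2D series left out, DUSP6 ran from -0.021 to 0.0321, VIM from -0.0155 to 0.000714, CCND1 from -0.0136 to 0.029, MYC from -0.0235 to 0.00929 and MSRA from -0.025 to 0.00357.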

Other observations

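Some single pairs held large differences, read here after the values were seen. At 4 h in 2D03 the CDK inhibitor CDKN1A stood at 0.20 with EGF and 1.33 with DMSO-EGF, the circadian repressor BHLHE40 at 0.24 and 1.60, the kinetochore gene CENPF at 0.02 and -0.76, and the chemokine CXCL1 at 1.11 and 0.01. At 4 h in 2D04 and 3D04, CDKN1A differed by 0.10 and 0.05, BHLHE40 by 0.10 and 0.66, CENPF by 0.01 and -0.06 and CXCL1 by -0.12 and 0.19. BHLHE40 was therefore higher with DMSO in all 3 series at 4 h, but did not pass limma's test with all 3 pairs. It passed without the 2D04 pair (1.01, SE 0.15, adjusted p = 0.030). That pair had the smallest difference, so this pass is no support. In the 48 h pair of 3D04 CXCL1 stood at 0.22 with EGF and 1.70 with DMSO-EGF, with control at 0.74, and PTGS2 at 3.06 and 3.92, with control at 3.86. At 48 h CXCL1 differed by -0.02 in 2D03 and 0.18 in 2D04, and PTGS2 by 0.81 in 2D03 and -0.11 in 2D04. PTGS2 did not pass limma's test at 48 h with all 3 pairs. It passed without the 2D04 pair (0.84, SE 0.11, adjusted p = 0.00859). That pair went the other way, so this pass is no support either.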
